A study of Mus musculus with 8 samples.

Results

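The genes described here are 40 cell cycle genes, chosen by name for their roles in DNA replication and mitosis with no measured value in the rule, though earlier results of these data were known when the list was drawn up. Of these, 38 were listed among the 10825 genes of the deposited count table, and Cenpf and Pclaf had no row in it. The set comprised 10 S phase genes (Mcm2 to Mcm7, Rrm1, Rrm2, Pcna and Tyms), 25 mitotic genes and 5 others (Tk1, Pclaf, Stmn1, Hmgb2 and Tuba1b). The libraries came from cells labelled as dendritic cells (DCs), sorted from tumours that E0771, a mouse mammary carcinoma line, formed in mice labelled WT. Of 8 libraries, 4 came from mice treated with DRQ, which the labels call an inhibitor of CD74, and 4 from mice given PBS. Dosing started at day 10 after injection and the cells were sorted at week 3; the sources used here give neither the age nor the sex of the mice, nor the markers of the sort. The labels leave unsaid whether each sample was 1 mouse or a pool, so the p-values reflect sample-to-sample spread that may be technical in part.

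In dividing cells the MCM2-7 helicase unwinds DNA at replication origins, ribonucleotide reductase and thymidylate synthase supply deoxynucleotides, and PCNA clamps the polymerases to the template. Later, cyclin B and CDK1 drive entry into mitosis, Aurora and Polo-like kinases and kinesins build and use the spindle, and CDC20 and UBE2C help the anaphase-promoting complex to degrade cyclins. Conventional DCs arise from cycling precursors and divide to a limited extent in tissues, whereas activated T cells, NK cells and carcinoma cells can cycle fast. Any dividing cell type in a library can contribute these transcripts, and in bulk libraries fewer dividing cells and less RNA per dividing cell cannot be told apart.

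Replication genes are typically controlled by E2F factors and mitotic genes by the MuvB complex, which binds the cell cycle homology region (CHR), often next to boxes bound by NF-Y. Promoter windows of 250 bases before and 50 after the start site were found in RefSeq (build GRCm38.p6) for 34 of the 40 genes, in 36 windows. The motifs searched, on both strands, were TTTGAA for the CHR, CCAAT for the NF-Y box, and TTTCCCGC, TTTCGCGC, TTTGCCGC or TTTGGCGC for E2F. The 4 windows printed here are those of Cdca8, Ccnb2, Mcm5 and Cdc20, which are the genes with a window among the 6 members with the smallest unadjusted p in the comparison of DRQ with PBS. They are printed 5′ to 3′ on the gene's strand, with motif matches in capitals.

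Cdca8, chr4:124936868-124937167, minus strand: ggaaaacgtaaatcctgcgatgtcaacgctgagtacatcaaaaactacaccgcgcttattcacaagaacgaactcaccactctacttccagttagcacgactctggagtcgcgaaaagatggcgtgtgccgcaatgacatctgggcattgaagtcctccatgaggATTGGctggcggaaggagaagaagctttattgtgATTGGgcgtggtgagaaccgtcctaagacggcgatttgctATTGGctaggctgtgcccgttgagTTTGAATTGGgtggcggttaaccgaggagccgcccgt
Ccnb2, chr9:70421505-70421804, minus strand: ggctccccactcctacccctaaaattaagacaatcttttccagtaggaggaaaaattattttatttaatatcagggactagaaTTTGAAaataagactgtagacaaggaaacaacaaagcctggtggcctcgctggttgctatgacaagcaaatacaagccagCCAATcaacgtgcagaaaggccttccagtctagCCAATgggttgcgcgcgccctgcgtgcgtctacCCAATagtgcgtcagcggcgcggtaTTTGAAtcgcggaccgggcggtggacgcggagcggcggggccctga
Mcm5, chr8:75109259-75109558, plus strand: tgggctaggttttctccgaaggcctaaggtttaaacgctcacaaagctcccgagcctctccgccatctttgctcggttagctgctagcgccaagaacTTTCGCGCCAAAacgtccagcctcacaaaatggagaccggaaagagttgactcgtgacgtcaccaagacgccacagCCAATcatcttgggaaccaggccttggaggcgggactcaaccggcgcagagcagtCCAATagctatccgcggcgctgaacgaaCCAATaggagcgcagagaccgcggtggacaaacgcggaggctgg
Cdc20, chr4:118437294-118437593, minus strand: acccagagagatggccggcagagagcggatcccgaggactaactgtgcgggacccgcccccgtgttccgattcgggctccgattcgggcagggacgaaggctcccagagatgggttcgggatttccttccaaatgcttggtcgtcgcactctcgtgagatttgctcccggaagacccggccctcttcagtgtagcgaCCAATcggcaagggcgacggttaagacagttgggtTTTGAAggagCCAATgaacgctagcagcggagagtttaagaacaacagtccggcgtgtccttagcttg

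The mitotic windows shown, Cdca8, Ccnb2 and Cdc20, each held a CHR word and NF-Y boxes. In Cdca8 the CHR began at base 14 after the start site and shared its last base with an NF-Y box. In Ccnb2 1 CHR began at base 5 and another at base -167, with NF-Y boxes beginning at -87, -54 and -21. Mcm5 had no CHR word but had 2 overlapping E2F words on opposite strands, beginning at -153 and -149. A match to these letters is a description of the window and does not show binding.

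**Figure D1:**
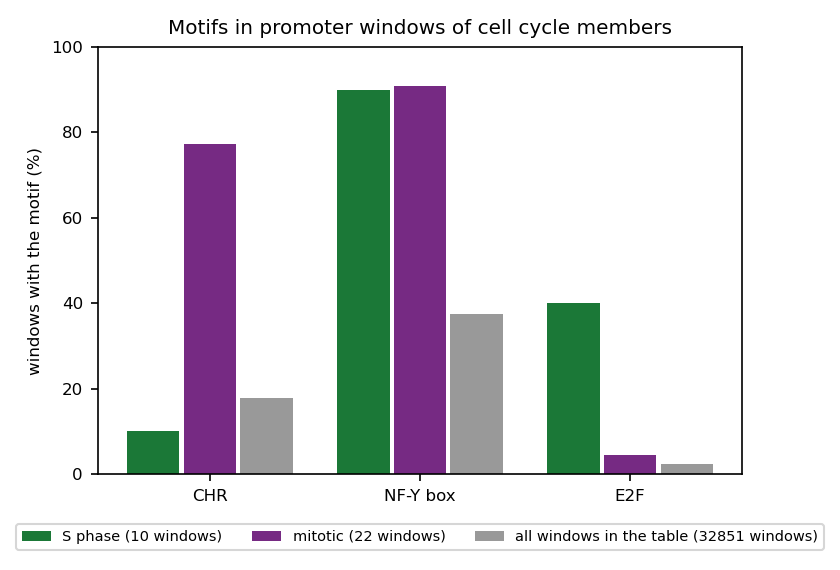
Share of promoter windows (%, linear axis from 0) that hold each motif on either strand, for 10 windows of S phase genes, 22 windows of mitotic genes and all 32851 windows in the RefSeq table. The CHR bar is highest for mitotic genes (77.3%) and the E2F bar for S phase genes (4 of 10).

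Over the whole set the CHR and E2F words split by role, and the NF-Y boxes did not. The CHR word stood in 17 of 22 mitotic windows (77.3%) and in 1 of 10 S phase windows (10.0%), against 17.9% of all 32851 windows in the table. An E2F word stood in 4 of 10 S phase windows and in 1 of 22 mitotic windows (4.55%), against 2.26% of all windows. NF-Y boxes were in 90.0% of S phase and 90.9% of mitotic windows, against 37.4% of all windows. No test was made of these shares, because the genes were picked for roles that these motifs are known for.

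Total counts per library ran from 361792 to 543892, so 1 count corresponded to between 1.91 and 3.00 CPM (counts scaled to the library's total in tested genes and its TMM factor). The 9 listed genes of the type 1 conventional DC list summed to 6691 ± 426 CPM in DRQ and 5284 ± 1505 CPM in PBS (SD, n = 4), and the 5 listed genes shared by conventional DCs to 452 ± 42.0 CPM in DRQ and 403 ± 44.9 CPM in PBS (SD, n = 4). Most of the type 1 sum came from Cst3 and Irf8. Cst3 averaged 4117 CPM in DRQ and 3039 CPM in PBS, and Irf8 2024 CPM in DRQ and 1721 CPM in PBS. Xcr1 and Clec9a, which define type 1 conventional DCs, had no row in the table used here. The type 1 sum is therefore not read as a measure of type 1 DC content. Zbtb46, a defining factor of conventional DCs, averaged 10.2 CPM in DRQ and 2.10 CPM in PBS and was too low to be tested. Lymphocyte transcripts were abundant too: the 13 genes of the NK and cytotoxic list summed to 17214 ± 3185 CPM in DRQ and 19174 ± 2375 CPM in PBS, and the 15 listed T cell genes to 3228 ± 100.1 CPM in DRQ and 3104 ± 368 CPM in PBS (SD, n = 4). The highest 2 genes of each of these lists were Gzma, a granule protease (5043 CPM in DRQ and 5602 CPM in PBS), the chemokine gene Ccl5 (3893 CPM in DRQ and 4765 CPM in PBS), and, of the T cell list, the T cell receptor constant genes Trbc1 (1256 CPM in DRQ and 1354 CPM in PBS) and Trbc2 (472 CPM in DRQ and 458 CPM in PBS). Keratin and other tumour epithelial genes summed (Krt8 and Krt18 the highest) to between 32.6 and 195 CPM in DRQ and between 120 and 289 CPM in PBS. Which of these cells carried the cell cycle transcripts was not tested. CPM values here are scaled by TMM factors and count 3′ ends, so they are not divided by gene length.

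Cell cycle transcripts were present in all 8 libraries, with a median over the tested members of 72.0 CPM, against 59.7 CPM over all genes tested. Of the 38 listed genes 37 were counted in every library; Bub1, a spindle checkpoint kinase, had 0, 1, 1 and 3 counts in DRQ replicates 1 to 4 and 3, 7, 3 and 3 counts in PBS replicates 1 to 4. Together the 38 genes took 0.314 ± 0.0201% of the counts in DRQ and 0.309 ± 0.0332% in PBS (SD, n = 4), with ranges of 0.297 to 0.341% and 0.274 to 0.350%. The ranges overlapped over most of their length. The filter on low counts kept 30 genes for testing: all 10 S phase genes, 16 of the 24 listed mitotic genes and all 4 other listed genes. The 8 listed genes left out were Kif11, Kif20a, Prc1, Nusap1, Aurka, Ccnb1, Cenpe and Bub1, all mitotic, with 21 to 61 counts in total over the 8 libraries.

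**Figure D2:**
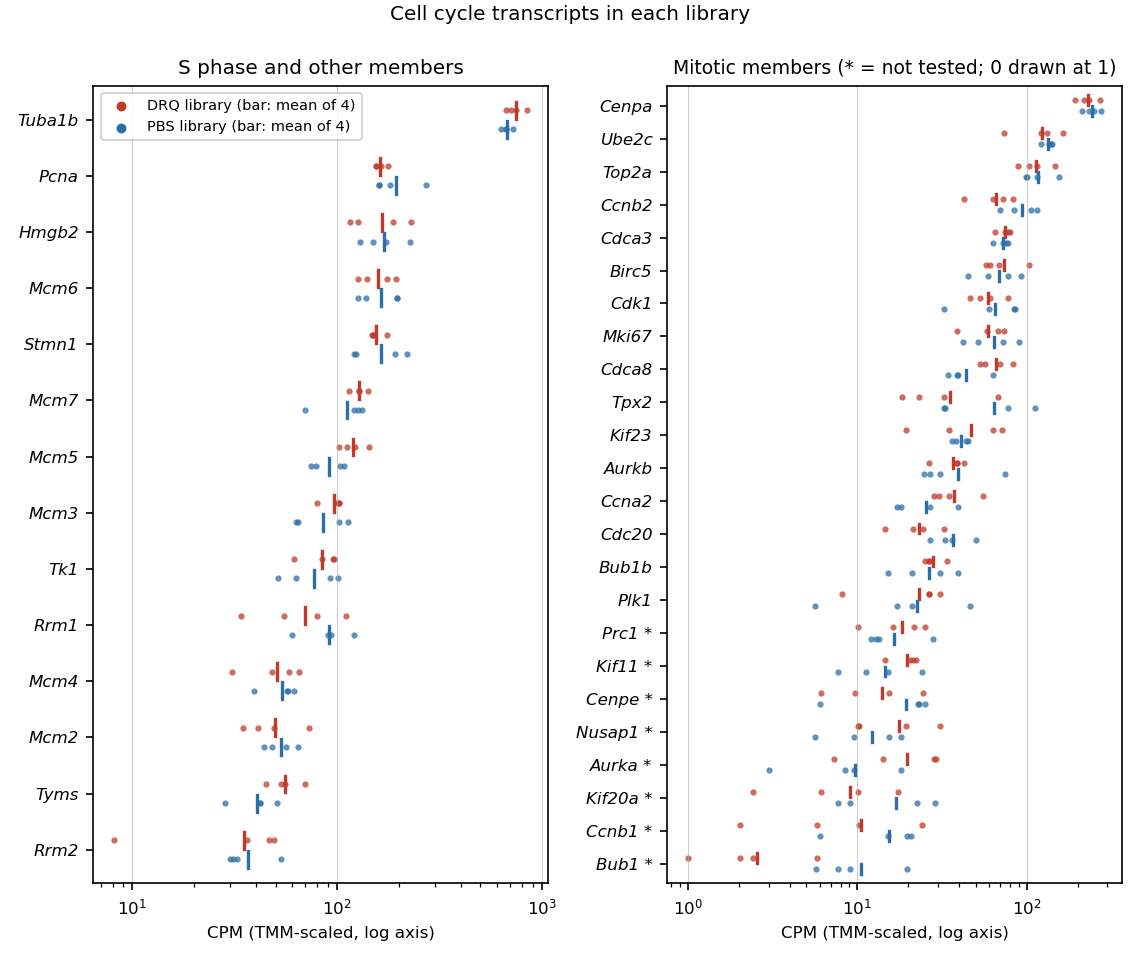
TMM-scaled CPM (log axis) of the 38 listed cell cycle genes in each library, with DRQ libraries in red above PBS libraries in blue for each gene and a bar at the mean of 4. Genes with an asterisk were not tested and a value of 0 is drawn at 1; the points of the groups overlap for all 38 genes.

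The comparison of DRQ with PBS asked whether an inhibitor of CD74 changed these transcripts in tumour DC libraries. No cell cycle gene passed the test. With edgeR's quasi-likelihood test and Benjamini-Hochberg adjustment over all genes, 0 of the 30 tested genes were called higher and 0 lower, where 2 of 6156 genes tested were called (0.0325%), both higher. The lowest adjusted p among the 30 was 0.698, for Tpx2 (edgeR, Benjamini-Hochberg). At an unadjusted p under 0.05 the count was also 0 of 30, against 447 of 6156 genes (7.26%), of which 245 were higher (3.98%) and 202 lower (3.28%). DESeq2 called 0 of the 19 members to which it gave an adjusted p, against 15 of the 3410 genes with one in all (0.44%), and limma-voom called 0, against 2 of 6156 (0.0325%). Values of the groups overlapped for all 30 genes, where 266 of 6156 genes did not overlap (4.32%), 132 of them higher (2.14%) and 134 lower (2.18%).

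Estimates lay on both sides of 0. Of the 30 genes 13 had a log2 fold change above 0 and 17 below 0, with a median of -0.05, against a median of -0.01 over all 6156 genes. The median size of the log2 fold change, ignoring sign, was 0.12 for these genes and 0.22 for all genes tested. For 22 of the 30 genes the 95% interval of the log2 fold change lay wholly between 2-fold lower and 2-fold higher. The other 8 were Tpx2, Cdca8, Ccnb2, Cdc20, Ccna2, Plk1, Tyms and Rrm1, whose intervals reached past 2-fold on 1 side or both. The half-width of the interval ran from 0.27 for Tuba1b to 1.08 for Plk1.

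**Figure D3:**
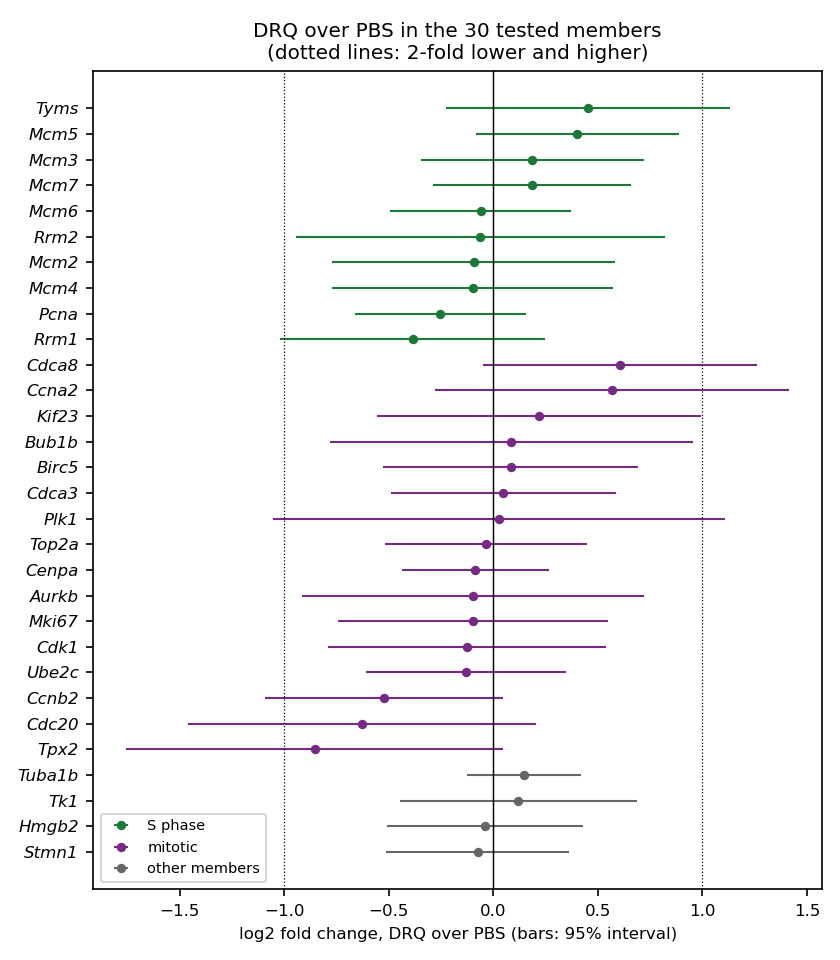
Log2 fold change of DRQ over PBS (horizontal axis) with its 95% interval for the 30 tested genes, coloured as S phase, mitotic or other. All 30 intervals include 0, and 22 lie within the dotted lines at 2-fold lower and higher.

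Among S phase genes, the MCM helicase subunits had estimates on both sides of 0. Mcm5 had the smallest p of the 10, with 112, 142, 102 and 122 CPM in DRQ replicates 1 to 4 and 74.5, 78.6, 108 and 103 CPM in PBS replicates 1 to 4. Only the PBS libraries 3 and 4 reached into the DRQ range. The means were 119 ± 17.3 CPM in DRQ and 91.1 ± 17.0 CPM in PBS (SD, n = 4), a log2 fold change of 0.40 ± 0.24 (SE) that did not pass (adjusted p = 0.755 by edgeR with Benjamini-Hochberg adjustment). Mcm6, another subunit of the same ring, averaged 158 ± 31.4 CPM in DRQ and 164 ± 37.4 CPM in PBS (SD, n = 4), with a log2 fold change of -0.06 ± 0.21. It had 194, 175, 126 and 139 CPM in DRQ replicates 1 to 4 and 197, 126, 138 and 196 CPM in PBS replicates 1 to 4. The ranges were nearly the same. Mcm3 and Mcm7 stood at 0.19 each, and Mcm2 and Mcm4 at -0.09 and -0.10, so 3 of the 6 subunits had estimates above 0 and 3 below.

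Pcna, the sliding clamp, had 163, 155, 177 and 155 CPM in DRQ replicates 1 to 4 and 181, 160, 159 and 271 CPM in PBS replicates 1 to 4. PBS replicate 4 stood well above the 7 other libraries, which lay between 155 and 181 CPM. The log2 fold change was -0.25 ± 0.20, and -0.05 without PBS replicate 4. The nucleotide supply genes differed in sign. Tyms, thymidylate synthase, stood at 0.45 ± 0.33 with 44.9 to 69.6 CPM in DRQ and 28.4 to 50.5 CPM in PBS. Rrm1 and Rrm2, the large and small subunits of ribonucleotide reductase, stood at -0.39 ± 0.31 and -0.06 ± 0.43, and Rrm2 was lowest, at 8.14 CPM, in DRQ replicate 2. Tk1, the thymidine salvage kinase, was at 0.12 ± 0.28.

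Among mitotic genes the estimates of the 4 with the smallest p split, with 1 above 0 and 3 below. Tpx2, a spindle assembly factor that activates Aurora A, had 32.6, 18.3, 67.8 and 23.2 CPM in DRQ replicates 1 to 4 and 32.5, 112, 33.0 and 77.5 CPM in PBS replicates 1 to 4. The highest values were in PBS replicates 2 and 4 and DRQ replicate 3, and the remaining 5 libraries lay between 18.3 and 33.0 CPM. Its log2 fold change was -0.85 ± 0.44 (adjusted p = 0.698 by edgeR with Benjamini-Hochberg adjustment), and -0.45 without PBS replicate 2 or -1.34 without DRQ replicate 3. Cdca8, the borealin subunit of the chromosomal passenger complex, had 83.6, 57.0, 53.2 and 69.6 CPM in DRQ and 34.4, 39.3, 63.1 and 38.7 CPM in PBS. Of the PBS libraries only replicate 3 lay above any DRQ library, and the log2 fold change was 0.61 ± 0.32 (adjusted p = 0.706 by edgeR with Benjamini-Hochberg adjustment). Aurkb and Birc5, which encode the kinase and survivin of the same complex, stood at -0.10 ± 0.40 and 0.08 ± 0.30.

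The cyclins had estimates of both signs, none past the threshold. Ccnb2, a mitotic cyclin that pairs with CDK1, had 42.8, 83.4, 72.6 and 63.8 CPM in DRQ replicates 1 to 4 and 115, 107, 84.1 and 69.7 CPM in PBS replicates 1 to 4. PBS replicates 1, 2 and 3 lay above all DRQ libraries and PBS replicate 4 lay among them, with a log2 fold change of -0.52 ± 0.28. Ccna2, the cyclin of S phase and early mitosis, had 28.6, 30.5, 55.7 and 34.8 CPM in DRQ replicates 1 to 4 and 17.2, 39.3, 27.03 and 18.1 CPM in PBS replicates 1 to 4, and a log2 fold change of 0.57 ± 0.41. Cdk1 itself stood at -0.13 ± 0.32. Cdc20, the activator of the anaphase-promoting complex, had 24.5, 32.5, 14.5 and 21.3 CPM in DRQ replicates 1 to 4 and 26.7, 50.5, 33.0 and 36.1 CPM in PBS replicates 1 to 4, with a log2 fold change of -0.63 ± 0.41. Ube2c, the ubiquitin-conjugating enzyme that works with this complex, was at -0.13 ± 0.23.

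Mki67 and Top2a, commonly used as markers of proliferating cells, had close means. Mki67 averaged 59.4 ± 15.2 CPM in DRQ and 63.9 ± 21.4 CPM in PBS (SD, n = 4; log2 fold change -0.10 ± 0.31). Top2a, the topoisomerase that untangles chromosomes, averaged 114 ± 24.4 CPM in DRQ and 118 ± 25.9 CPM in PBS (SD, n = 4; log2 fold change -0.04 ± 0.24). Cenpa, the histone H3 variant of centromeres, had the highest 3′-end counts of the mitotic genes, with 271, 218, 194 and 234 CPM in DRQ replicates 1 to 4 and 235, 213, 276 and 250 CPM in PBS replicates 1 to 4. The ranges of both groups nearly coincided, with a log2 fold change of -0.09 ± 0.17.

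The genes that are less specific to dividing cells had small estimates. Tuba1b, an alpha-tubulin, had 848, 748, 709 and 669 CPM in DRQ replicates 1 to 4 and 630, 724, 670 and 664 CPM in PBS replicates 1 to 4 (log2 fold change 0.15 ± 0.13); its reads can be shared with near-identical tubulin genes, so its level is uncertain. Hmgb2, a chromatin protein that is high in cycling cells, had 188, 116, 126 and 230 CPM in DRQ replicates 1 to 4 and 174, 227, 129 and 150 CPM in PBS replicates 1 to 4. Stmn1, a microtubule destabiliser, had 149, 148, 174 and 149 CPM in DRQ replicates 1 to 4 and 124, 191, 120 and 219 CPM in PBS replicates 1 to 4. The spread between libraries of a group was larger than the difference between groups for Hmgb2 and Stmn1, at log2 fold changes of -0.04 ± 0.23 and -0.08 ± 0.21, and leaving out single libraries turned the sign of both, as it did for Mcm6.

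Levels averaged over the genes of a phase differed between groups by less than the spread between libraries. The S phase level, the mean log2 CPM of the 10 genes, was 6.59, 6.24, 6.27 and 6.45 in DRQ replicates 1 to 4 and 6.35, 6.48, 6.30 and 6.41 in PBS replicates 1 to 4. The group means were 6.39 ± 0.16 in DRQ and 6.38 ± 0.08 in PBS (SD, n = 4). The lowest level was in DRQ replicate 2, where Rrm2 had 4 counts. In summed CPM that library stood at 905, above DRQ replicate 3 (837) and PBS replicate 3 (859). The mitotic level, over the 16 tested genes, was 5.83, 5.86, 5.98 and 5.88 in DRQ replicates 1 to 4 and 5.66, 6.09, 5.84 and 6.16 in PBS replicates 1 to 4. The group means were 5.89 ± 0.06 in DRQ and 5.94 ± 0.23 in PBS (SD, n = 4). The DRQ libraries lay within the range of the PBS libraries for the mitotic level, and the PBS libraries within the range of the DRQ libraries for the S phase level. No p is given for these averages.

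**Figure D4:**
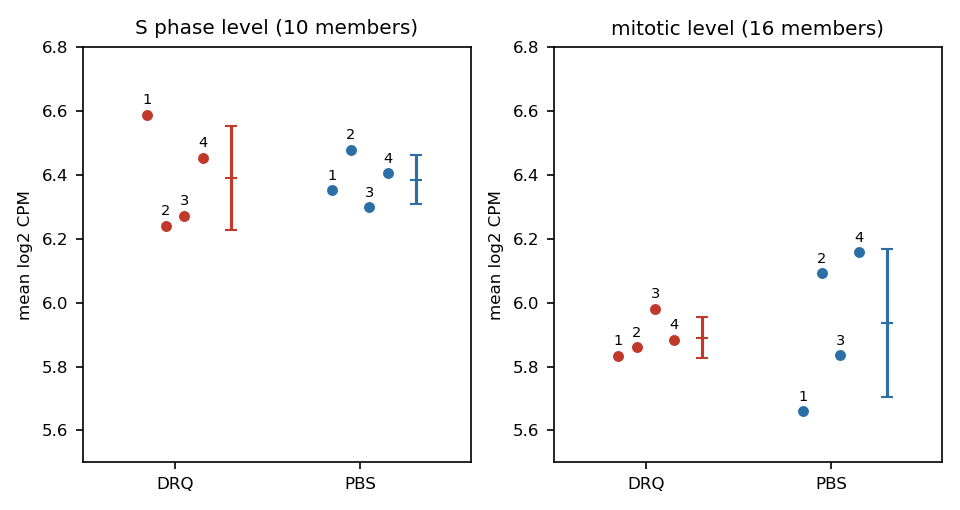
Mean log2 CPM per library (vertical axis, from 5.5 to 6.8) of the 10 S phase genes and the 16 tested mitotic genes, with replicate numbers, group means and SD bars (n = 4). DRQ and PBS means are 6.39 and 6.38 for S phase and 5.89 and 5.94 for mitotic genes.

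The relation between the phase levels had opposite signs within the groups. DRQ replicate 1 had the highest S phase level of the 8 libraries but, after PBS replicate 1, the lowest mitotic level, and over the 8 libraries Pearson's r between the levels was 0.14 and Spearman's rho 0.05, with r = -0.57 over the 4 DRQ libraries and 0.69 over the 4 PBS libraries. Without DRQ replicates 1 and 2, which lay farthest from the median S phase level, r was 0.37. PBS replicates 2 and 4 each held the highest value for 4 of the 16 tested mitotic genes, and PBS replicate 1 held the lowest for 6. As a measure of how unevenly a gene was counted, the chi-square per degree of freedom against a constant share of the library had a median of 2.25 for the 30 tested genes and 2.53 for all 6156. Its size is not read against counting error, because the sources used here do not say whether each count is 1 molecule. It was highest for Tpx2, at 9.53, and Hmgb2, at 6.06, and lowest for Cdca3, a trigger of mitotic entry, at 0.30.

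Cell cycle levels were set beside those of 11 cell type marker lists, in 23 relations over 8 libraries including that between the phase levels. Values in CPM share a total, so a larger share for 1 list lowers the others, and these correlations are descriptions with no p. The relations given first, and plotted, are those with the largest r, ignoring sign, of the 23. The mitotic level ran against the T cell markers, with r = -0.77 and rho = -0.81, and r = -0.82 once each group's mean was removed. PBS replicates 2 and 4 had the highest mitotic levels and the lowest T cell levels (6.62 and 6.73), and PBS replicate 1 the lowest mitotic and the highest T cell level (7.32). Without PBS replicates 1 and 2, which lay farthest from the median, r was -0.57. With all listed genes in each list it was -0.49, with library totals only -0.61, and with log2 of summed CPM -0.90. The S phase level ran against the NK and cytotoxic markers, with r = -0.74 and rho = -0.55, but r was 0.03 without DRQ replicate 1 and PBS replicate 2, so the relation rests on those libraries.

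**Figure D5:**
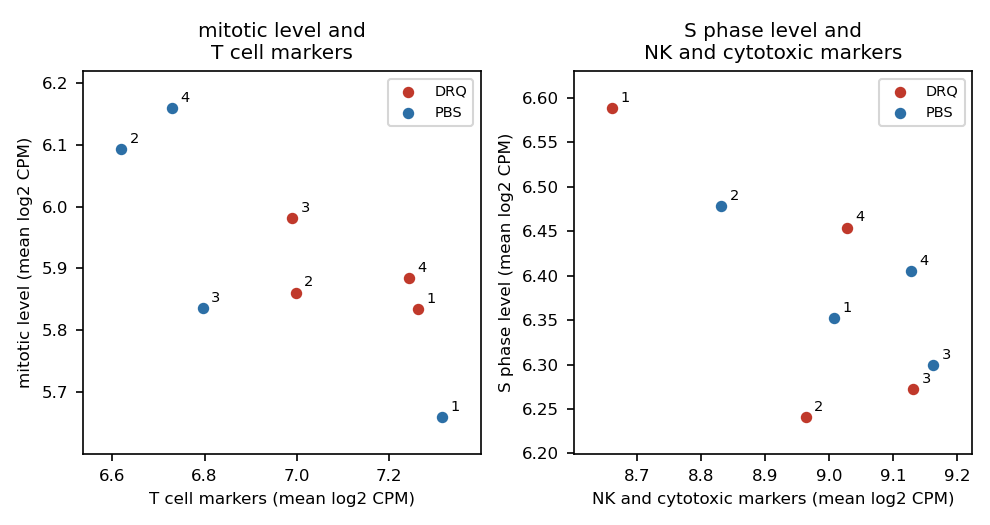
Left, mitotic level against T cell marker level, and right, S phase level against NK and cytotoxic marker level, as mean log2 CPM with 1 point per library, numbered by replicate. The left points fall from PBS replicates 2 and 4 to PBS replicate 1, and on the right DRQ replicate 1 and PBS replicate 2 stand apart at the low end of the horizontal axis.

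Relations with the DC lists depended on the libraries or the measure. The markers shared by conventional DCs, over 4 tested genes (Flt3, Itgax, Kit and Ciita), had r = -0.35 and rho = -0.64 with the S phase level. With log2 of summed CPM this r was 0.20. Against the mitotic level r was -0.46, and from -0.62 to -0.30 with a library left out. It was 0.11 within DRQ and -0.91 within PBS. For type 1 conventional DC markers, r with the S phase level was -0.49, and -0.64 once group means were removed. It was -0.83 within DRQ, -0.80 within PBS and -0.72 without PBS replicates 1 and 2. With a library left out it ran from -0.80 to -0.36, the latter without DRQ replicate 2. With log2 of summed CPM, where Cst3 and Irf8 made up most of the sum, it was 0.04. The r of type 1 markers with the mitotic level was -0.14. Plasmacytoid DC markers, over 3 tested genes, had r = -0.62 with the mitotic level. It was 0.59 within DRQ and -0.79 within PBS, and -0.35 with log2 of summed CPM. Type 2 conventional DC markers, over 4 tested genes, had r = -0.57 with the mitotic level. It was -0.66 once group means were removed, -0.60 with log2 of summed CPM and from -0.75 to -0.41 with a library left out. Without PBS replicates 2 and 4 it was 0.39. For mature DC markers, whose mean level was 7.02 ± 0.22 in DRQ and 6.20 ± 0.40 in PBS (SD, n = 4), r was -0.16 with the S phase and -0.20 with the mitotic level, and 0.12 and 0.24 without PBS replicate 2. The regulatory T cell list, at 7.37 ± 0.17 in DRQ and 6.74 ± 0.14 in PBS (SD, n = 4), gave 0.10 and -0.34, and its r with the mitotic level was -0.77 without PBS replicate 1, -0.09 without PBS replicate 4 and -0.07 with all listed genes. Tumour epithelial markers, over 3 tested genes, were at 3.49 and 3.73 mean log2 CPM in DRQ replicates 1 and 3. They were at 3.74 in PBS replicate 3, and between 5.74 and 6.08 in the 5 other libraries. Their r was -0.02 with the S phase level and 0.23 with the mitotic level, with rho of 0.19 and 0.60.

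Estimates of genes with and without the CHR word in their window both spanned 0. The 14 tested genes with the word had a median log2 fold change of -0.06 (5 above 0, 9 below), and the 11 tested genes with a window but without it had 0.12 (7 above, 4 below). Cdca8, Ccnb2 and Cdc20, printed above, share the CHR and NF-Y boxes, and their estimates were 0.61, -0.52 and -0.63, none of which passed.

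Other cell cycle genes, both regulators and further effectors of replication and division, were taken from 5 lists, with 113 genes listed and 68 tested. None passed over all genes, with 0 called in either direction by edgeR with Benjamini-Hochberg adjustment; without adjustment, 3 of the 68 had a p under 0.05 with higher values in DRQ and 3 with lower, close to the shares over all genes (3.98% and 3.28%). Of the G1 cyclins, CDKs and CDK inhibitors 5 of 12 had estimates above 0, of the replication factors 8 of 21, of spindle, condensin and cytokinesis genes 8 of 16, and of antiproliferative and quiescence genes 6 of 11. Of the 68, 1 gene had all DRQ values above PBS and 1 all below, against 2.14% and 2.18% of all genes tested. The latter was in the list of E2F, RB and DREAM regulators, which includes Myc. Of the 17 listed genes of this list 8 were tested. Among these, 6 had estimates below 0, with a median of -0.37, against -0.01 over all genes. The lowest p in that list was for Lin37, a subunit of the MuvB core, with 26.5, 40.7, 75.01 and 58.0 CPM in DRQ replicates 1 to 4 and 95.5, 92.7, 72.1 and 92.9 CPM in PBS replicates 1 to 4. Only PBS replicate 3 lay below a DRQ library (log2 fold change -0.83 ± 0.31, adjusted p = 0.494 by edgeR with Benjamini-Hochberg adjustment).

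Cdkn1a, which encodes the CDK inhibitor p21, had the smallest p of these lists. It had 659, 592, 554 and 398 CPM in DRQ replicates 1 to 4 and 279, 267, 330 and 501 CPM in PBS replicates 1 to 4, so that DRQ replicate 4 lay below PBS replicate 4 and all other DRQ libraries above all PBS libraries. Its log2 fold change of 0.68 ± 0.19 missed the threshold (adjusted p = 0.248 by edgeR with Benjamini-Hochberg adjustment). It passed only without PBS replicate 4, its highest PBS library (0.91, adjusted p = 0.0281 by edgeR). With any other library left out, the adjusted p ran from 0.099 to 0.605 (edgeR). It was 0.153 with DESeq2, 0.325 with limma-voom and 0.293 with a replicate block in edgeR. Gadd45b, a stress-induced growth arrest gene, stood at 0.46 ± 0.15 (adjusted p = 0.333 by edgeR with Benjamini-Hochberg adjustment). Lmnb1, a nuclear lamina gene, was at 0.73 ± 0.29 and the G1 cyclin Ccnd1 at 0.57 ± 0.28. On the other side of 0 were Myc, a growth-promoting transcription factor, at -0.48 ± 0.21, the G1 kinase Cdk4 at -0.41 ± 0.19 and Uhrf1, which recruits DNA methyltransferase to replicated DNA, at -0.83 ± 0.41. H2az1 could not be matched to a name in the table and is not given.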

How the data were processed

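Gene counts were used as the authors deposited them: whole numbers per Ensembl gene, made by MARS-seq adapted to bulk RNA, which per the labels' protocols reads transcript 3′ ends and carries molecular identifiers (UMIs). Tools named in the submitters' processing notes, with no role, are STAR 2.7.3a, HTSeq, cutadapt, bcl2fastq 2.20.0.422, DESeq and DESeq2 1.26.0, with the build GRCm39; the sources used here do not say whether UMIs were collapsed or strand was used. Each listed gene had at least 6 counts in at least 1 library. Symbols came from an annotation of another mouse build, which named 10788 of 10825 IDs, so gene coordinates are not printed except with the RefSeq promoter windows of GRCm38.p6. The deposited normalized table was not used.

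The test was edgeR 4.0.16's quasi-likelihood F test under R 4.3.3, with robust fitting, TMM factors and filterByExpr; p-values were adjusted by Benjamini-Hochberg over the 6156 genes kept, with a threshold of 0.05. Alternatives used limma 3.58.1 (voom) and DESeq2 1.42.0. CPM is scaled to the counts in tested genes, and levels are means of log2 CPM with prior count 2. Intervals are 95% and use the moderated degrees of freedom. Values of every library are given for the 6 members with the highest mean CPM and the 6 with the smallest unadjusted p, and, from the pathway lists, up to 4 genes per direction with the smallest p are named. The other members are named by role. The members and lists were chosen with earlier results of these data known. The fit was tested on simulated data.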

Additional observations from a re-analysis of the deposited data

Results flagged for a closer look

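Single libraries stood apart from the other 3 of their group in 6 of the 66 groups of 4 checked, by the gap to the nearest library relative to the group's range; chance flags about 1 in 20 such groups. Among cell cycle members, Stmn1 was at 174 CPM in DRQ replicate 3, with the other DRQ libraries between 148 and 149 CPM. Of the genes from the pathway lists, Lmnb1 was at 143 CPM in DRQ replicate 1, against 92.0 CPM in the next DRQ library. Lin37, also from those lists, was at 72.1 CPM in PBS replicate 3, against 92.7 CPM in the next PBS library. Of the cell type levels in mean log2 CPM, conventional DC markers were at 5.99 in DRQ replicate 4 (next 6.53), macrophage markers at 7.52 in DRQ replicate 4 (next 5.66) and tumour epithelial markers at 3.74 in PBS replicate 3 (next 5.80).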

How the results depend on the processing

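No cell cycle member was called under any of the 15 alternatives run (0 in each), and the lowest adjusted p of any member in them was 0.495, without PBS replicate 3 (edgeR, Benjamini-Hochberg adjustment). The count over all genes, 2 in the main test, was 7 with library totals only, 8 with no filter, 15 with DESeq2 and 6 with a replicate block, and ran from 0 (without DRQ replicate 3) to 15 (without PBS replicate 4) with a library left out. Whether the replicate numbers pair the samples was not settled, because correlations this small cannot decide it. Same-number deviations correlated at 0.0805, -0.014, 0.0605 and -0.00755 for numbers 1 to 4. Those of unlike numbers ran from -0.0796 to 0.0571. No named gene was called with the replicate block. The S phase difference ran from -0.06 to 0.05 and the mitotic difference from -0.14 to 0.03 with a library left out. Over the same removals the log2 fold change ran from -0.24 to 0.12 for Hmgb2, from -0.17 to 0.043 for Mcm6 and from -0.20 to 0.10 for Stmn1; the cause was not tested. Depth limits the 8 listed members that were not tested.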
